A study of Mus musculus with 8 samples.

Results

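GABA-A receptor subunits were followed in the orbital frontal cortex, a prefrontal region, of C57BL/6 mice aged 12 weeks. The 7 genes described are Gabra2, Gabra3, Gabra4, Gabra5, Gabrb1, Gabrb2 and Gabrd, taken by name from the 13130 genes of the deposited gene table, with their 11 transcripts of the 24526 in the transcript table. Of the 8 libraries, 4 came from mice labelled control, given a scrambled short hairpin RNA (sh-scramble), and 4 from mice labelled circHomer1/Homer1b knockdown, given sh-circHomer1/sh-Homer1b. Both groups share strain, age and tissue, and both carry a hairpin, so no library is from an untreated mouse. The labels give neither the way the hairpins were delivered nor whether a knockdown library received 1 hairpin or both. Nothing in them says that each library is a separate animal, so the p-values below speak of the spread among libraries only.

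GABA-A receptors are chloride channels opened by GABA, the main inhibitory transmitter of the cortex, and each is assembled from several subunits around a central pore. GABA binds where an alpha and a beta subunit meet, and the alpha subunit sets much of the receptor's place in the cell and its response to benzodiazepines. Receptors with a gamma subunit carry most of the fast synaptic current, whereas those that pair alpha4 with delta lie outside synapses and give a lasting, neurosteroid-sensitive current. Levels below are FPKM (fragments scaled to transcript length and library size), differences are knockdown minus control on the log2(FPKM + 1) scale, and the threshold was a Benjamini-Hochberg adjusted p under 0.05 over all 13004 genes tested with limma.

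Before any comparison, knockdown replicate 4 stood apart. Its 8 measured olfactory bulb markers, of 11 listed, summed to 55.7 FPKM, and to between 9.30 and 11.3 FPKM in each of the other 7 libraries. The mitral cell genes Cdhr1 and Doc2g read 9.93 and 10.4 FPKM there, and between 0.421 and 1.12 FPKM in the other 7 libraries. Eomes, another gene of those cells, was listed at 0 in control replicate 2 and at 2.37 FPKM in knockdown replicate 4. All 25 striatal projection neuron markers were measured, none was listed at 0 in any library, and their sum ran from 340 to 1081 FPKM in controls, against 262 to 653 FPKM in knockdown libraries. These markers of the neighbouring striatum were lower on average in the knockdown group in 25 of 25 cases, beside 5861 of all 13004 genes tested. At an unadjusted p under 0.05 (limma) 2 of the 25 were lower, beside 5.07% of all genes, and none passed the threshold. The 13 markers of excitatory cortical neurons summed to between 1123 and 1453 FPKM, with Slc17a7, the vesicular glutamate transporter, at 102 to 153 FPKM. Homer1, the targeted gene, read 23.5, 26.3, 21.3 and 18.9 FPKM in controls, against 18.9, 16.5, 16.6 and 19.3 FPKM in knockdown libraries (limma adjusted p = 0.273). This gene value pools the isoforms of Homer1. Neither Homer1b nor the circular RNA circHomer1 was analysed separately here. The same knockdown replicate 4 was the highest library in the summed astrocyte markers (565 FPKM, with 433 to 497 in the other 7) and endothelial markers (61.4 FPKM, with 44.1 to 51.0) and the lowest in myelin markers (701 FPKM, with 806 to 1401). In tissue samples such as these, fewer cells of a type and less RNA per cell cannot be told apart.

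None of the 7 subunit genes passed the threshold in the comparison of the groups, and limma adjusted p ran from 0.300 to 0.917. All 7 were above the low-value filter. In mean level 5 were lower in the knockdown group and 2 higher, with a median log2 difference of -0.05, beside 0.01 over all genes tested. No gene of the table passed (0% of those tested), while 5.07% were lower at an unadjusted p under 0.05 and 9.1% higher. Among the subunits Gabrb2 and Gabra4 were lower at that level and none was higher. Without knockdown replicate 4 only Gabrb2 was, beside 3.88% of genes. The groups did not overlap for Gabrb2, which is 1 of the 3.22% of genes with every knockdown library below every control.

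**Figure D1:**
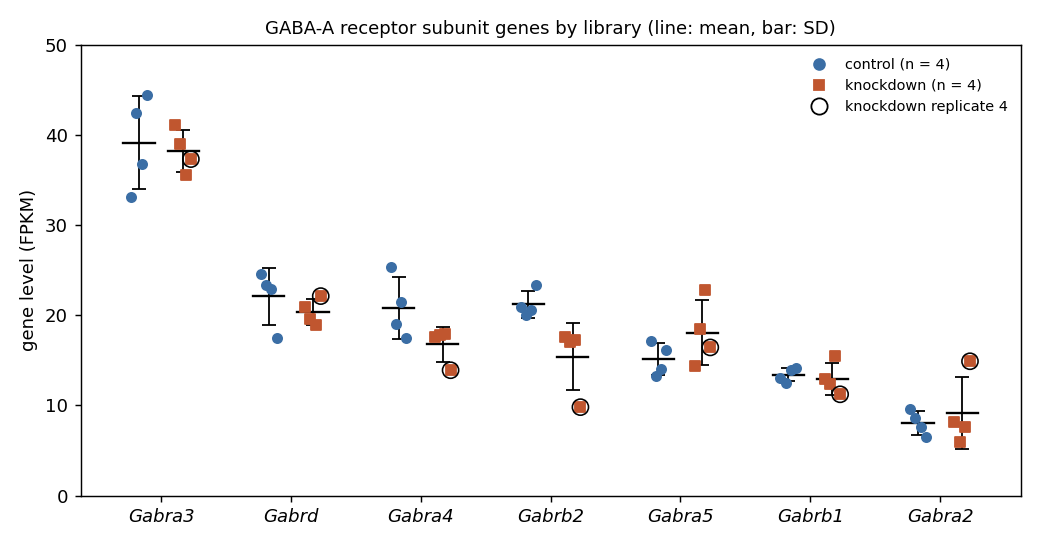
Level of each subunit gene in FPKM (vertical axis) in the 4 control libraries (circles) and the 4 knockdown libraries (squares), with the mean as a line and the SD as a bar. Gabrb2 has every knockdown library below every control, and knockdown replicate 4, ringed, is the lowest library for Gabrb2 and Gabra4 and the highest for Gabra2.

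By gene value, Gabra3 was the most abundant of the 7 genes and Gabra2 the least. In controls Gabra3 read 39.1 ± 5.19 FPKM (SD, n = 4), 4.84 times the level of Gabra2, and its range did not meet that of any of the other 6. Gabrb2, Gabrd and Gabra4 followed at 21.2 ± 1.50, 22.1 ± 3.14 and 20.8 ± 3.46 FPKM (SD, n = 4 each). The control ranges of these 3 overlapped, so their order by gene value is not resolved. Gabra5 and Gabrb1 came next, at 15.1 ± 1.78 and 13.4 ± 0.752 FPKM, and also overlapped. Gabra2 lay below all of them, at 8.09 ± 1.33 FPKM (SD, n = 4). This order depends on length, since a gene value is taken over the merged exons of the gene. These span 3924 bases for Gabra3, 6083 for Gabra4 and 6360 for Gabrb2, against 3662, 4108 and 3989 in Gabra3-201, Gabra4-201 and Gabrb2-201. By transcript, Gabra3-201 at 35.1 to 47.3 FPKM in controls met Gabra4-201 (25.2 to 37.4) and Gabrb2-201 (31.6 to 36.9). Gabrb2-201 lay above Gabrd-201 (20.9 to 25.8 FPKM).

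The 4 alpha genes lie on 3 chromosomes (coordinates on GRCm38). Gabra2 (ENSMUSG00000000560.9, chromosome 5, 70957597 to 71095849, minus strand) and Gabra4 (ENSMUSG00000029211.11, chromosome 5, 71569749 to 71658308, minus strand) belong to a cluster that also holds Gabrb1 (ENSMUSG00000029212.11, chromosome 5, 71658113 to 72149037, plus strand). Gabra4 and Gabrb1 start head to head, and their annotated spans overlap by 196 bases on opposite strands. RefSeq gives Gabrb1 one start at 71657921, 387 bases inside Gabra4, and a second at 71699932, 41624 bases beyond the Gabra4 start. The listed transcript Gabrb1-201 begins at the second. Its level covers all 13737 bases of the transcript and does not tell which start was used. Start use was not tested. Gabra5 (ENSMUSG00000055078.7, chromosome 7, 57407672 to 57510059, minus strand) lies apart from that cluster. The library kit kept strand, but the sources used here do not say whether counting used it, which bears on the bases Gabra4 and Gabrb1 share. Gabra3 (ENSMUSG00000031343.13) lies on chromosome X, 72432681 to 72656848, minus strand.

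The bases ahead of 4 starts are printed because these members hold the largest differences or show where an isoform begins. RefSeq windows were found for 6 of the 7 genes. Each line gives the 250 bases before a RefSeq start on GRCm38.p6, 5′ to 3′ on the gene's strand, with motif matches on either strand in capitals. The motifs searched were the GC box, spelled GGGCGG, and the CCAAT box, named for its letters. The TATA box was searched as TATAAA. The cyclic AMP response element was searched as TGACGTCA, and the EGR site, whose end can overlap a GC box, as GCGTGGGCG.
Gabra4, chr5:71658309-71658558, minus strand, ahead of Gabra4-201: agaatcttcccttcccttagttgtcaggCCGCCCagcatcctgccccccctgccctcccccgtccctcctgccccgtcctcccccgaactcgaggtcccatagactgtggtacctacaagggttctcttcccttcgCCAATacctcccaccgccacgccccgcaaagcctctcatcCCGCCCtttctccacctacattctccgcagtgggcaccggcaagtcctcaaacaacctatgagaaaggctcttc
Gabrb1, chr5:71699682-71699931, plus strand, ahead of Gabrb1-201: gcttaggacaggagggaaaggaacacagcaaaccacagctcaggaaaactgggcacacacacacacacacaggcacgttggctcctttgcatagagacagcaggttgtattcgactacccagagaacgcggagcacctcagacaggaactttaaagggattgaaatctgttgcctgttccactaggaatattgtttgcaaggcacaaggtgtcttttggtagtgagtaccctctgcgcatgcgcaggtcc
Gabra5, chr7:57510060-57510309, minus strand, ahead of Gabra5-203: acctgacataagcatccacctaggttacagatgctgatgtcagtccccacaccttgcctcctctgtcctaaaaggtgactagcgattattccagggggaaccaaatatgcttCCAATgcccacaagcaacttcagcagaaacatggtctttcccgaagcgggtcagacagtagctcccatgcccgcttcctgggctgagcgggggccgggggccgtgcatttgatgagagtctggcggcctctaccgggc
Gabrb2, chr11:42420190-42420439, plus strand, within the first intron of Gabrb2-201: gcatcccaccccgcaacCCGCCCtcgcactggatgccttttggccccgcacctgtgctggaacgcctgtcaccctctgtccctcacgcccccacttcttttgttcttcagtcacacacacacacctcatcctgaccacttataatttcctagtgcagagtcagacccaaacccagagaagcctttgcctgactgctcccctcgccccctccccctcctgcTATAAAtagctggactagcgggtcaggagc
The Gabra4 window held 2 GC boxes and 1 CCAAT box, the Gabra5 window 1 CCAAT box, the printed Gabrb2 window 1 GC box and 1 TATA box just ahead of the start, and the printed Gabrb1 window none of the 5 motifs. RefSeq gives Gabrb2 starts at 42420440, 42420774 and 42421201, and the windows ahead of the later 2 held neither a GC box nor a TATA box, with 1 CCAAT box in the middle one. Over all 32851 windows of this length, 32.7% held a GC box, 33.8% a CCAAT box and 12.4% a TATA box. The response element and the EGR site, present in 1.55% and 0.536% of all windows, were in none of the 10 windows of the members. In the printed windows G and C made up 61.2% ahead of Gabra4, 58.8% for Gabrb2, 56.4% for Gabra5 and 50.8% for Gabrb1. These matches describe the letters of the windows only.

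Gabrb2 encodes beta2, one of the beta subunits that complete the GABA site and are needed for the receptor to reach the surface (ENSMUSG00000007653.12, chromosome 11, 42419757 to 42629028, plus strand). It read 21.0, 20.0, 20.5 and 23.4 FPKM in controls, against 17.5, 17.1, 17.2 and 9.81 FPKM in knockdown libraries. Every knockdown library was below every control, and the fourth was far below the other 3. The means were 21.2 ± 1.50 against 15.4 ± 3.74 FPKM (SD, n = 4), for a log2 difference of -0.47 ± 0.17 (SE; limma adjusted p = 0.300). Without knockdown replicate 4 the difference was -0.28 ± 0.06 (limma adjusted p = 0.386), and the groups still did not overlap, as for 4.42% of all genes in that direction. Those 3 knockdown libraries averaged 17.3 ± 0.240 FPKM (SD, n = 3), so both groups were then tight. With the olfactory bulb marker score as a covariate the difference was -0.25 (limma adjusted p = 0.443). Adjusted for the striatal marker score it was -0.38 (limma adjusted p = 0.666). Other markers moved with Gabrb2 as well. Over the 8 libraries, as a description, Pearson's r of Gabrb2 was -0.96 with the interneuron marker score, -0.92 with the olfactory bulb score and -0.90 with the astrocyte score. Knockdown replicate 4 was the highest library in all 3 scores, and their part in the difference was not tested further. The single listed transcript, Gabrb2-201 (474 codons, 10 exons), read 33.5 ± 2.34 against 24.3 ± 5.85 FPKM, again without overlap, where 2.66% of transcripts had every knockdown library lower (SD, n = 4; limma adjusted p = 0.590 over 23415 transcripts).

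Gabrb1 encodes beta1, another beta subunit. It read 13.1, 12.5, 13.9 and 14.2 FPKM in controls, against 12.9, 12.3, 15.4 and 11.2 FPKM in knockdown libraries. The groups overlapped fully, with knockdown replicates 3 and 4 as the highest and the lowest of all 8 libraries. The log2 difference was -0.05 ± 0.09 (limma adjusted p = 0.809), and 0.01 without knockdown replicate 4. As a share of the summed FPKM of the beta genes described here, Gabrb2 made up 61.6%, 61.5%, 59.7% and 62.3% in controls, against 57.6%, 58.1%, 52.7% and 46.6% in the knockdown group. Each knockdown library thus had a lower Gabrb2 share than each control, including the 3 libraries other than knockdown replicate 4. This share is a description, since it restates the Gabrb2 level beside that of Gabrb1. It covers the gene values of these genes only, each scaled to the merged exons of its own gene.

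Gabra4 encodes alpha4, the benzodiazepine-insensitive alpha that partners delta outside synapses. It read 25.4, 19.0, 21.5 and 17.5 FPKM in controls, against 17.5, 17.8, 17.9 and 13.9 FPKM in knockdown libraries. Controls spread widely, and control replicate 4 lay below the highest 3 knockdown libraries. The means were 20.8 ± 3.46 against 16.8 ± 1.93 FPKM (SD, n = 4), a log2 difference of -0.29 ± 0.12 (limma adjusted p = 0.343). Without knockdown replicate 4 it was -0.21 ± 0.11 (limma adjusted p = 0.541). The order of the libraries in Gabra4 was close to their order in striatal markers. The summed striatal markers were 1081, 690, 955 and 340 FPKM in controls 1 to 4 and 313, 538, 653 and 262 FPKM in knockdown libraries 1 to 4. The library highest in these markers was also highest in Gabra4, and the lowest was lowest. Adjusted for the striatal marker score, the Gabra4 difference was -0.11 (limma adjusted p = 0.772). The score averaged 0.35 in controls and -0.35 in knockdown libraries, so the covariate can also take up part of a group difference.

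**Figure D2:**
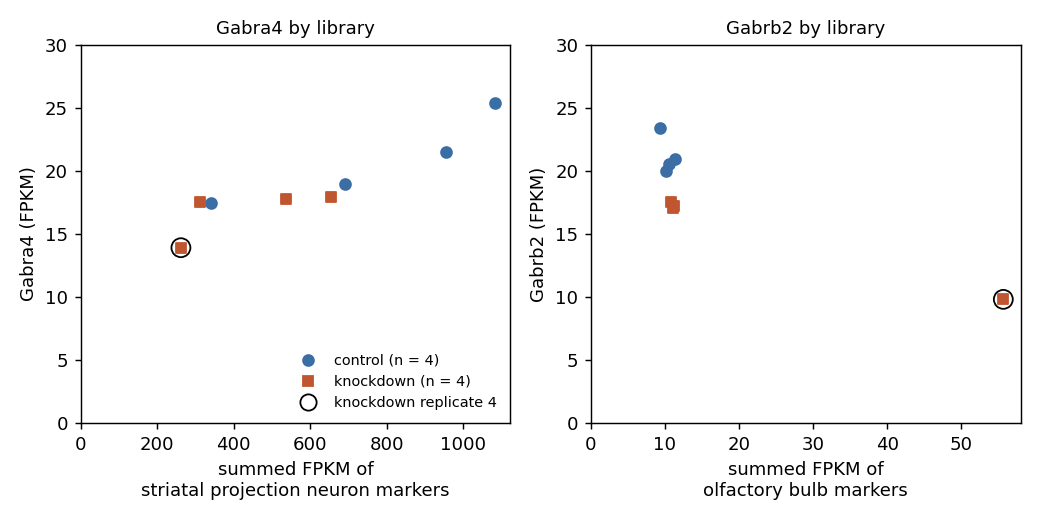
Gabra4 level against the summed FPKM of 25 striatal projection neuron markers (left) and Gabrb2 level against the summed FPKM of 8 olfactory bulb markers (right), 1 point per library. Gabra4 runs from 13.9 FPKM at 262 FPKM of striatal markers to 25.4 FPKM at 1081, and in the right panel knockdown replicate 4 lies alone at 55.7 FPKM of bulb markers.

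Nearly all of the Gabra4 signal belonged to 1 isoform. Gabra4-201 (552 codons, 4108 bases, 9 exons) read 37.4, 27.5, 31.1 and 25.2 FPKM in controls, against 25.4, 25.8, 25.8 and 20.2 FPKM in knockdown libraries, 96.3% ± 1.89 and 96.7% ± 0.798 of the summed listed isoforms (SD, n = 4). Its log2 difference of -0.30 ± 0.13 did not pass (limma adjusted p = 0.634). Gabra4-203 (94 codons) and Gabra4-205 (578 codons) had means of 0.568 and 0.527 FPKM in controls, against 0.468 and 0.386 FPKM in knockdown libraries. Gabra4-205 was below the filter on low values and was not tested, and it was listed at 0 in knockdown replicate 4.

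Gabrd encodes delta, which takes the place of gamma in extrasynaptic receptors (ENSMUSG00000029054.8, chromosome 4, 155384980 to 155398112, minus strand). It read 24.6, 23.3, 22.9 and 17.5 FPKM in controls, against 20.9, 19.6, 18.9 and 22.1 FPKM in knockdown libraries. Control replicate 4 was the lowest of all 8 libraries, and the groups overlapped. The log2 difference was -0.10 ± 0.10 (limma adjusted p = 0.663), -0.14 without knockdown replicate 4, -0.20 without control replicate 4 and -0.03 once adjusted for striatal markers. The coding transcript Gabrd-201 (449 codons, 9 exons) was steadier than the gene value, at 22.8, 25.8, 24.2 and 20.9 FPKM in controls, against 22.3, 21.0, 20.1 and 20.5 FPKM in knockdown libraries. Its log2 difference was -0.15 ± 0.07 (limma adjusted p = 0.641). The log2 ratio of Gabrd to its partner Gabra4 was taken from gene values. Those of Gabrd hold a part outside Gabrd-201, 20.2% to 38.2% by library. The ratio was -0.04, 0.28, 0.09 and 0.0026 for the controls, against 0.24, 0.13, 0.07 and 0.63 for the knockdown libraries. The groups overlapped, and the mean difference of 0.19 did not pass a two-sided exact permutation test of all 70 labelings (p = 0.257, where 0.0286 is the smallest possible). Knockdown replicate 4 had the highest ratio, and without it the difference was 0.07. Alternatives that kept all libraries, among them 1 with the listed transcripts in place of gene values, gave 0.15 to 0.20.

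Gabra5 encodes alpha5, a subunit of extrasynaptic receptors on pyramidal cell dendrites that are anchored by radixin. It read 17.1, 13.3, 14.0 and 16.1 FPKM in controls, against 14.4, 18.5, 22.8 and 16.4 FPKM in knockdown libraries. Knockdown replicates 2 and 3 were above every control, and the other 2 fell within the control range. The log2 difference was 0.23 ± 0.14 (limma adjusted p = 0.470), 0.26 without knockdown replicate 4 and 0.11 without knockdown replicate 3. Adjusted for striatal markers it was 0.33 (limma adjusted p = 0.632).

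Gabra5 was the member with several isoforms at appreciable levels, and the difference in means was largest for Gabra5-203. All 3 isoforms have the same coding exons (463 codons) and differ in their starts, ends and lengths. Gabra5-203 starts at 57510059, Gabra5-201 50 bases downstream and Gabra5-202 688 bases downstream. In the same order they end at 57407905, 57407672 and 57407719. Their lengths are 2224, 2671 and 2607 bases, in 10, 10 and 11 exons. Which of these features goes with the difference was not tested. Gabra5-203, whose upstream window is printed above, read 11.9, 9.89, 9.73 and 10.2 FPKM in controls, against 11.0, 15.4, 15.5 and 14.2 FPKM in knockdown libraries. The values of knockdown replicates 2, 3 and 4 were above every control, while knockdown replicate 1 lay between control replicate 1 and the other controls. The log2 difference was 0.39 ± 0.12, the smallest p of the 10 transcripts tested, and did not pass (limma adjusted p = 0.565). It was the 1 member transcript higher at an unadjusted p under 0.05, where 4.2% of all transcripts were, and Gabrb2-201 was the 1 lower, where 3.76% were.

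The means of the other Gabra5 isoforms lay closer together. Gabra5-202 read 6.39 ± 1.17 against 6.64 ± 1.91 FPKM and Gabra5-201 1.93 ± 0.481 against 1.94 ± 0.948 FPKM (SD, n = 4, control against knockdown). Gabra5-203 made up 55.8% ± 3.47 of the listed isoforms in controls and 62.5% ± 5.93 in the knockdown group. A test of each isoform against the others of its gene gave a log2 difference of 0.38 ± 0.21 for Gabra5-203 (limma adjusted p = 0.902 over 16241 transcripts). None of the 5 member transcripts that could enter this test was past an unadjusted p of 0.05, beside 2.73% of all transcripts higher and 2.72% lower. At adjusted p under 0.05, 0.0256% of all transcripts were called in the level test and 0.0246% in the isoform test, and no member.

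**Figure D3:**
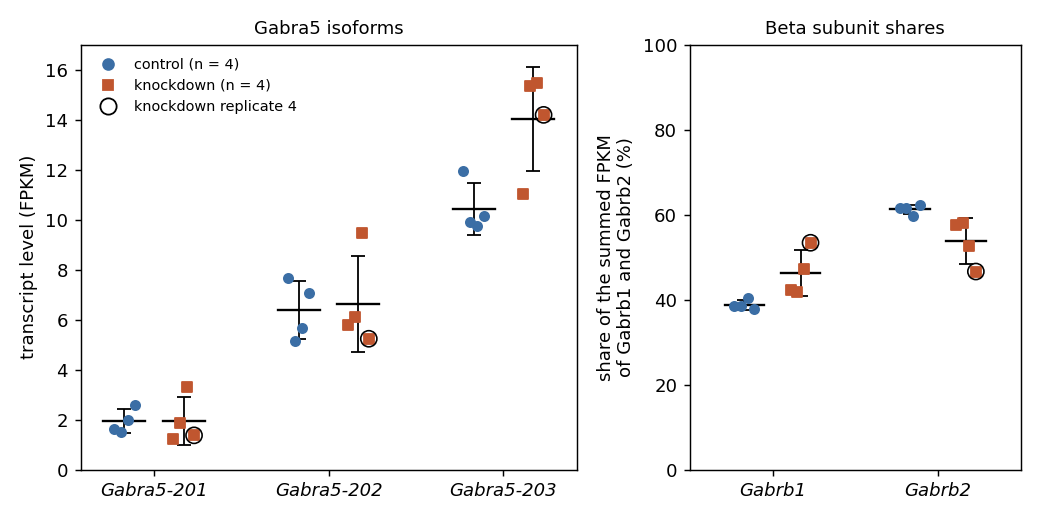
Left, level in FPKM of the 3 listed Gabra5 isoforms; right, Gabrb1 and Gabrb2 as percent of their summed FPKM, both by library with mean (line) and SD (bar). Gabra5-203 rests at 9.73 to 11.9 FPKM in controls, against 11.0 to 15.5 FPKM in knockdown libraries, and the Gabrb2 share lies at 59.7% or more in every control and 58.1% or less in every knockdown library.

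Gabra3 encodes alpha3, a synaptic alpha that gephyrin binds directly. It read 33.1, 42.4, 36.7 and 44.4 FPKM in controls, against 41.1, 39.0, 35.6 and 37.3 FPKM in knockdown libraries. All knockdown libraries fell inside the control range. The log2 difference was -0.03 ± 0.09 (limma adjusted p = 0.917), the smallest in size of the 7. Its listed transcript Gabra3-201 (492 codons) read 41.6 ± 5.56 against 40.6 ± 2.40 FPKM (SD, n = 4; limma adjusted p = 0.955).

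Gabra2 encodes alpha2, a synaptic alpha found on the axon initial segment of pyramidal cells. It read 9.63, 8.61, 7.56 and 6.54 FPKM in controls, against 8.16, 5.91, 7.63 and 14.9 FPKM in knockdown libraries. Knockdown replicate 4 was by far the highest library, and the other 3 were within or below the control range. The log2 difference was 0.10 ± 0.24 (limma adjusted p = 0.869), and -0.14 ± 0.14 without knockdown replicate 4 (limma adjusted p = 0.729). With the olfactory bulb marker score as a covariate it was -0.18. The direction for Gabra2 thus turned without knockdown replicate 4. Over the 8 libraries, as a description, Pearson's r of Gabra2 was 0.93 with the endothelial marker score, 0.84 with the astrocyte score and 0.84 with the olfactory bulb score, and the part of these in the value was not tested.

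Over the 4 alpha genes together the level was nearly the same in all libraries, from 79.8 to 85.2 FPKM in controls, against 81.2 to 84.0 FPKM in knockdown libraries. Gabra3 held the largest share, 47.1% ± 6.16 in controls and 46.5% ± 3.56 in the knockdown group (SD, n = 4). Gabra4 held 25.0% ± 4.09 and 20.4% ± 2.40, Gabra5 18.2% ± 1.81 and 21.9% ± 4.08, and Gabra2 9.71% ± 1.51 and 11.1% ± 4.76. The control and knockdown ranges overlapped for each of the 4. These shares are of the 4 genes only, not of all alpha subunits. They rest on gene values, each scaled to the merged exons of its own gene.

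For Gabra2 and Gabrd the gene value was not mainly, or not wholly, a value of the coding transcript. Over the table, a gene's FPKM multiplied by the summed length of its merged GENCODE M21 exons was never below the length-weighted sum of its listed transcripts, within 0.1%, in 11274 genes. It equalled that sum in 99.75% of values of the 399 genes with several annotated transcripts, all listed. The rest of a gene value therefore belongs to annotated transcripts outside the listed ones, and it was 3.76% in the median gene. For Gabra2 it was 75.8%, 76.7%, 74.2% and 74.2% in controls, against 76.0%, 75.5%, 76.9% and 74.3% in the knockdown group, a larger part than in 97.9% of genes. The 5 other annotated Gabra2 transcripts are 2 nonsense-mediated decay forms, 2 retained-intron forms and 1 processed transcript. The coding transcript Gabra2-203 (451 codons) read only 2.60 ± 0.344 FPKM in controls, against 2.94 ± 1.40 FPKM in knockdown libraries (SD, n = 4).

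For Gabrd the part outside Gabrd-201 was 38.1%, 26.2%, 29.4% and 20.2% in controls, against 28.7%, 28.5%, 29.1% and 38.2% in the knockdown group. Control replicate 1 and knockdown replicate 4 shared the highest values, and control replicate 4 the lowest. On the gene scale this part was 3.54 to 9.36 FPKM in controls, against 5.50 to 8.46 FPKM in knockdown libraries. The 2 other annotated Gabrd transcripts are processed transcripts. In the other 5 members the part was 0% for Gabra5, whose 3 annotated transcripts are all listed, and at most 1.58% elsewhere. For Gabra3, Gabra4, Gabra5, Gabrb1 and Gabrb2, then, nearly all of the gene value lies in the listed transcripts. The length factor between gene and transcript values differs from gene to gene. The Gabra5 value also pools isoforms whose group differences were not alike.

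**Figure D4:**
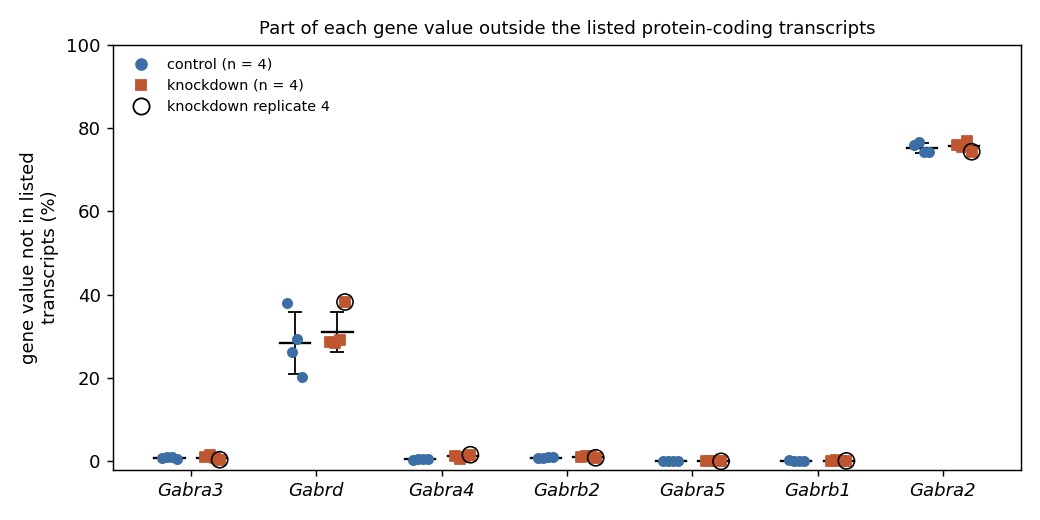
Percent of each gene's deposited value that lies outside its listed protein-coding transcripts (vertical axis), by library, with mean (line) and SD (bar). Gabra2 lies at 74.2% to 76.9% and Gabrd at 20.2% to 38.2%, while the other 5 genes lie at 1.58% or less.

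Other genes of GABA signalling gave no call either. Of 12 other receptor subunit genes on the list, 6 were measured, all 6 lower in mean in the knockdown group (median log2 difference -0.15) and 1 of them at an unadjusted p under 0.05, beside 5.07% of all genes. Without knockdown replicate 4, 5 of the 6 were lower (median -0.09) and 0 at that level. Gabrg3, the gamma3 subunit, was not the gene at that level. It read 4.46 ± 0.271 against 3.80 ± 0.648 FPKM (SD, n = 4; limma unadjusted p = 0.0818, limma adjusted p = 0.403). The GABA-B receptor list had 5 of 6 genes lower, with and without that library. In both cases 1 was lower at an unadjusted p under 0.05, beside 5.07% and 3.88% of all genes. That gene, Kctd16, an auxiliary subunit, read 9.69, 8.51, 8.72 and 7.55 FPKM in controls, against 8.29, 5.44, 6.05 and 4.35 FPKM in knockdown libraries (limma adjusted p = 0.277). Kctd8, of the same family, read 3.48 ± 0.781 against 2.63 ± 0.514 FPKM (SD, n = 4; limma adjusted p = 0.388).

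Of 21 measured genes for clustering, assembly and trafficking of GABA-A receptors, 9 were higher and 12 lower, with 2 in each direction at an unadjusted p under 0.05. Over all genes tested, 9.1% were higher and 5.07% lower at that level. Gphn encodes gephyrin, the scaffold that holds these receptors at inhibitory synapses. It read 18.4, 16.8, 18.0 and 17.7 FPKM in controls, against 15.0, 16.6, 16.3 and 14.7 FPKM in knockdown libraries, without overlap, as for 3.22% of genes in that direction (log2 difference -0.17 ± 0.05; limma adjusted p = 0.271). Hap1, which links internalised receptors to motor proteins, read 10.8, 9.93, 10.9 and 10.6 FPKM in controls, against 11.8, 13.0, 18.8 and 20.0 FPKM in knockdown libraries. These groups did not overlap either, as for 5.93% of genes in that direction (log2 difference 0.51 ± 0.16; limma adjusted p = 0.266). Without knockdown replicate 4 the difference was -0.14 for Gphn and 0.40 for Hap1, still without overlap (4.42% of genes lower in this way and 7.26% higher), and the list stood at 7 higher and 14 lower.

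GABA synthesis, packaging, uptake and breakdown genes were lower in 5 of 8 cases and chloride transporters and their kinases in 5 of 7, none at an unadjusted p under 0.05. Without knockdown replicate 4 these counts were 6 of 8, with 1 gene in each direction at that level, and 5 of 7, with none. Over all genes 7.05% were then higher at that level and 3.88% lower. Abat, the transaminase that starts GABA breakdown, averaged 29.9 ± 3.12 FPKM in controls and 25.9 ± 2.72 after the knockdown hairpins (SD, n = 4; limma adjusted p = 0.364). For Aldh5a1, the next enzyme, these means were 19.5 ± 0.768 and 18.0 ± 1.05 FPKM (limma adjusted p = 0.359). Slc12a2, the chloride importer NKCC1, read 21.2 ± 2.06 against 18.3 ± 3.61 FPKM, and Wnk2, a kinase acting on such transporters, 14.9 ± 1.56 against 16.4 ± 1.32 FPKM (SD, n = 4; limma adjusted p = 0.478 and 0.486). Interneuron markers were higher in 14 of 18 cases, 2 at an unadjusted p under 0.05, beside 9.1% of genes. They were higher in 12 of 18 cases without knockdown replicate 4, with 4 at that level, beside 7.05%. The interneuron marker score overlapped between the groups, at -0.12 to -0.04 in controls and -0.05 to 0.35 in knockdown libraries. The markers summed to 409 to 449 FPKM in controls, against 452 to 481 FPKM in knockdown libraries. These sums did not overlap. Among single genes 5.93% did not overlap in that direction, which is not a background for a sum of markers. Calb2, 1 of the markers, read 2.84 to 3.20 FPKM in controls, against 4.75, 4.17, 5.24 and 33.6 FPKM in knockdown libraries 1 to 4. The largest part of the sum was Sst, the somatostatin gene, at 204 to 233 FPKM in controls and 210 to 262 FPKM in knockdown libraries. Pvalb, Erbb4, Dlx6 and Reln were lower in mean.

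For each member, the 3 genes whose log2 levels ran most closely with it over the 8 libraries were taken from 11580 candidates, by Pearson's r as a description. Those named were Mtmr7 and Pitpnc1 for Gabrb2 (r = 0.990 and 0.986), Ppp1r9a, Slmap and Snx25 for Gabra4 (0.980 to 0.990) and Cyp4f14, Slco1c1 and Pcgf6 for Gabra2 (0.978 to 0.988). Gabrd ran with Mn1, Lxn and Rgs10 (0.964 to 0.984), and Gabra3 with Bcl2l13, Porcn and St8sia5 (0.966 to 0.983). Gabra5 ran with Ankra2, Cd24a and Ap2s1 (0.957 to 0.961), and Gabrb1 with Sypl, Ttc30a1 and Stim1 (0.958 to 0.963). No member was among the 3 of another. All points share the libraries, knockdown replicate 4 included.

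**Figure D5:**
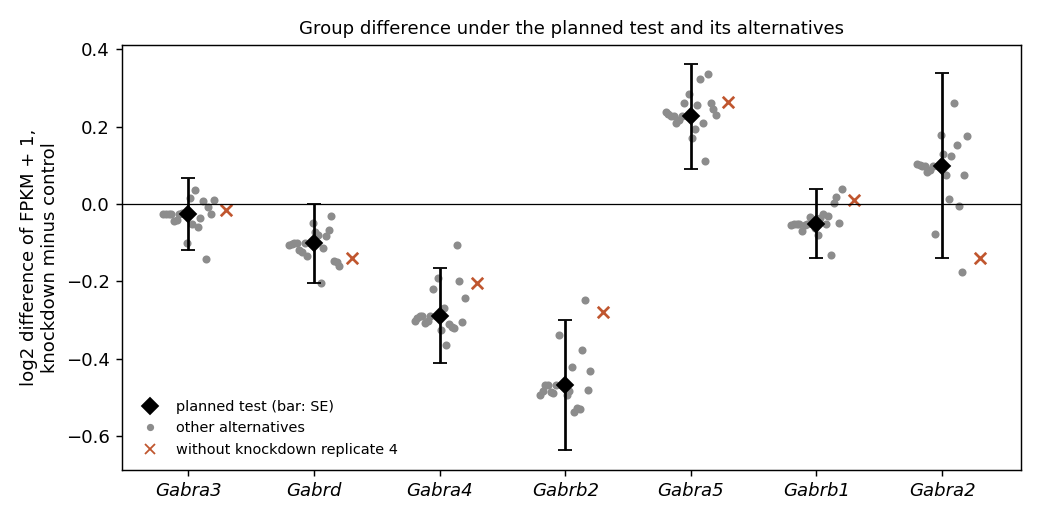
Log2 difference (knockdown minus control) of each subunit gene under the planned test (diamond, bar for the SE), under the other alternatives (grey points) and without knockdown replicate 4 (crosses). Gabrb2, Gabra4 and Gabrd stay below 0 and Gabra5 above 0 throughout, while Gabra2, Gabra3 and Gabrb1 cross 0.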

How the data were processed

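RNA was sequenced in 8 libraries, 4 per group, made from total RNA with a kit that keeps strand, per the labels' protocols. The authors deposited 1 gene table and 1 transcript table in FPKM, per the file headers. The submitters' processing notes list HISAT2, StringTie, cutadapt and FastQC and give no versions. Build and annotation were not given in the sources used here. Among genes, 87.5% had an identifier and version in GENCODE M21, all 11493 with identical coordinates there, so GRCm38 is used. FPKM values carry no read counts, so depth is unknown. Summed gene FPKM ran from 214316 to 224323. Library log2 correlations ran from 0.97 to 0.99.

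Features averaging 0.5 FPKM or more across all 8 libraries were tested on log2(FPKM + 1) with limma 3.58.1 in R 4.3.3 (trend and robust empirical Bayes, two-sided, no block). Fold changes on this scale understate those of low genes. An isoform test used log2 of each transcript over the other listed transcripts of its gene. The ratio of Gabrd to Gabra4 had an exact permutation test (scipy 1.17.1). The script was tested on simulated data. Named genes were the members, Homer1, up to 2 genes of smallest p in each pathway list, and the 3 genes most like each member. Slc17a7, Cdhr1, Doc2g, Eomes and the interneuron genes were chosen after their values were seen. A few genes chosen this way are not reported here. Marker scores are mean log2 deviations of the markers. The members and lists were chosen with earlier results of these data known. Alternatives changed the pseudocount, filter, scaling, test settings, block, covariates and gene value, and left out each library. An added alternative removed a trend with GC content and length (87.5% of tested genes), and was chosen after seeing the data. Promoter windows are from RefSeq (GRCm38.p6).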

Additional observations from a re-analysis of the deposited data

Results flagged for a closer look

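In 50 groups of 4 libraries, over gene levels, transcript levels, the part of a gene value outside the listed transcripts and the Gabrd to Gabra4 ratio, 5 held a library far from the other 3, where chance flags about 1 in 20. All 5 concerned knockdown replicate 4, and gene and transcript of 1 subunit are not independent. Gabrb2 read 9.81 FPKM there, with 17.1 to 17.5 FPKM in the rest of its group, and its transcript Gabrb2-201 15.5 against 26.9 to 27.7 FPKM. Gabra4 read 13.9 against 17.5 to 17.9 FPKM, and Gabra4-201 20.2 against 25.4 to 25.8 FPKM. The part of Gabrd outside its listed transcript was 38.2% against 28.5% to 29.1%. The same library had olfactory bulb markers at 55.7 FPKM, where the other 7 libraries had 9.30 to 11.3 FPKM, and the lowest sum of striatal markers. Their part in these values was not tested.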

How the results depend on the processing

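No subunit gene, transcript or isoform passed the threshold under any alternative run (smallest limma adjusted p 0.250 for genes, 0.461 for transcripts and 0.688 for isoforms). With 1 library left out, the log2 difference ran from -0.54 to -0.28 for Gabrb2, -0.36 to -0.19 for Gabra4, -0.20 to -0.05 for Gabrd, 0.11 to 0.32 for Gabra5, -0.14 to 0.26 for Gabra2, -0.13 to 0.0099 for Gabrb1 and -0.10 to 0.0362 for Gabra3, so the last 3 turned direction. Gabra2 also turned with array weights (-0.0767; Gabra2-203 -0.0243), the striatal covariate (-0.0058) and the olfactory bulb covariate (-0.18). Gabrb1 turned with those covariates (0.0011 and 0.0171) and after removal of the GC and length trend (0.0379), as Gabra3 did with the latter (0.0107). The causes were not tested. Among transcripts, leaving out 1 library turned Gabrb1-201 (-0.13 to 0.0101), Gabra3-201 (-0.10 to 0.0370), Gabra5-201 (-0.23 to 0.0812), Gabra2-203 (-0.15 to 0.20), Gabra4-203 (-0.17 to 0.0058) and Gabra5-202 (-0.13 to 0.12), and in the isoform test Gabra4-201 (-0.28 to 0.16).

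No gene was called in the planned test (1842 at an unadjusted p under 0.05), 2 with the olfactory bulb covariate and 0 to 2 with 1 library left out. At an unadjusted p under 0.05 there were 1057 with the striatal covariate, 1044 with the GC trend removed, and 1199 to 2173 with 1 library left out. Median-of-ratios rescaling split that count into 960 higher and 840 lower, against 1183 and 659. Called transcripts numbered 6, and 9 to 22 with 1 library left out. Isoform calls numbered 4, then 2 with the replicate block and 9 to 22 with 1 library left out, and a minimum of 2 FPKM left 393 of 886 at an unadjusted p under 0.05, since fewer were tested. The Gabrd to Gabra4 difference ran from 0.07 to 0.25 with 1 library left out.

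Same-numbered libraries did not pair: the correlations of their deviations were -0.185, -0.0723, 0.2 and -0.0174. In balanced pairs the replicate block cannot move a mean difference (-0.47 for Gabrb2), but its limma adjusted p went from 0.300 to 0.387. The block moved the count of genes at an unadjusted p under 0.05 to 1660. Read depth is unknown, so no detection limit can be given.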
